A study of Homo sapiens with 4 samples.

Results

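MEG3, MEG8 and MEG9 are long non-coding RNA (lncRNA) genes that lie one after another on the plus strand of chromosome 14, in the imprinted DLK1-DIO3 domain at band 14q32. Their members here were all rows of the deposited transcript table whose identifier, without its version, belongs to 1 of the 3 genes in the GENCODE annotation, release 44, mapped to GRCh37. This gave 48 of 19835 rows: 27 of MEG3, 18 of MEG8 and 3 of MEG9. The values came from HUH7 cells, a human line derived from a hepatocellular carcinoma, grown in DMEM with serum and given no treatment. Ribosomal RNA was removed with Ribo-Zero and 4 strand-specific libraries, replicates 1 to 4, were made, although the labels name the molecule as polyA RNA. The titles carry the letter L for replicates 1 and 3 and the letter H for replicates 2 and 4, which the submitters call internal names and no variables, so the letters define no group here. All 4 libraries form 1 group of 1 cell line, so there was no control arm, and levels could only be set against each other or against 5 FPKM, the cutoff the study used to choose transcripts for its knockdown screen. FPKM values are scaled by transcript length and library size, and errors are SD over n = 4 libraries throughout. Whether the libraries stem from separate cultures is not stated, so each p-value speaks only of the variation among 4 libraries, possibly technical.

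In an imprinted domain, genes are used from the chromosome of one parent only. From the maternal chromosome of the DLK1-DIO3 domain come the non-coding RNAs MEG3, MEG8 and MEG9 and large clusters of microRNAs and small nucleolar RNAs, and from the paternal chromosome come the coding genes DLK1, RTL1 and DIO3. MEG3 is known as a growth-restraining RNA that raises p53 activity and is silenced in many tumours, among them liver tumours. MEG8 carries the SNORD113 and SNORD114 small nucleolar RNAs in its introns, and MEG9 is a lncRNA near the far end of the microRNA clusters. Coding genes were not in the alignment reference, and the alleles were not told apart.

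HUH7 cells had a high value for MEG8, a moderate one for MEG3 and none for MEG9. Summed over its rows, MEG8 stood at 941.1 ± 98.75 FPKM and MEG3 at 50.62 ± 3.281 FPKM, whereas all 3 rows of MEG9 were listed at 0 in every library, as were 34.9% of all genes. Almost the whole value of each gene sat in 1 transcript, MEG8-206 for MEG8 and MEG3-202 for MEG3. Of the 48 rows, 43 (89.6%) were listed at 0 in all 4 libraries, and over the whole table this held for 39.4% of rows. All 5 rows with a value above 0 held sequence with at least 10000 copies in the genome, and its part in their values was not tested.

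Exon 1 of MEG8-206 (chr14:101424599-101424680) and exon 1 of MEG3-206 (chr14:101292455-101292554) are printed below, read from GRCh37 on the plus strand in transcript direction. The first is shown because it opens the transcript that carries nearly the whole MEG8 value. The second is shown because it lies near the point taken here as the MEG3 start, chr14:101292445, where MEG3-208 starts. Of the 8 MEG3 rows that hold it, none had a value above 0. Capitals would mark bases covered by a 24-mer that occurs at least 10 times in the genome on either strand, and neither exon holds such a base.
MEG8-206, exon 1: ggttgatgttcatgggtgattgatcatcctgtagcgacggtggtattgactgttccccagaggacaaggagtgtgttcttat
MEG3-206, exon 1: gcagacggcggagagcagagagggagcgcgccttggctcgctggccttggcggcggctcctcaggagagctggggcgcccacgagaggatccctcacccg

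MEG3 came first along the domain and second in level. Its gene sum was 55.17, 50.27, 47.36 and 49.7 FPKM in replicates 1 to 4. All 4 libraries were therefore close to each other and well above 5 FPKM. On the log2(FPKM + 1) scale, which understates differences of low rows, the sum lay 3.10 (SE 0.094) above the level of 5 FPKM (limma adjusted p = 1.78e-13). Among all genes with a matched model, 86.25% had a lower mean. Of the 7124 genes tested, 50.3% were called above 5 FPKM, so a call of this kind was common.

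MEG3-202 (ENST00000398461), a model of 4 exons and 3452 nt, held nearly all of this. Its values were 54.74, 50.18, 46.92 and 49.54 FPKM, with a mean of 50.34 ± 3.252 FPKM. Every library gave it a similar value, and its coefficient of variation (SD over mean) was 6.459%, against a median of 14.13% over 1107 rows of a level within 1.5-fold. It made up 99.22%, 99.82%, 99.07% and 99.68% of the MEG3 sum, 99.45 ± 0.3587% on average. It was called above 5 FPKM, by 3.10 (SE 0.091) on the log2(FPKM + 1) scale (limma adjusted p = 8.34e-10), as were 41.9% of the 11435 rows tested.

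The only other MEG3 row above 0 was MEG3-221 (ENST00000523671), a model of 6 exons and 2346 nt, at 0.43, 0.09, 0.44 and 0.16 FPKM. Replicates 1 and 3, titled L, were higher than replicates 2 and 4, titled H, a split not tested and not counted over all rows. All 4 values were below 1 FPKM. Their coefficient of variation was 64.75%, against a median of 127.2% over 1071 rows of a level within 1.5-fold. The split by title and the ratio to MEG3-202 below both rest on these low values. The row was called below 5 FPKM, by a difference of -2.24 (SE 0.186) on the log2(FPKM + 1) scale (limma adjusted p = 2.45e-06), and 43.3% of rows tested were called below. Within a library, MEG3-202 exceeded MEG3-221 by log2 ratios of 6.99, 9.12, 6.74 and 8.27, a mean of 7.78 ± 1.12 or 220-fold. In the exact two-sided permutation test over the signs of these ratios, 2 of 16 sign patterns were as extreme, the smallest p that 4 libraries allow, so the test cannot reach 0.05; adjustment over 3 isoform pairs left it as it was.

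No MEG3 row at the point taken as the MEG3 start had a value. In the current models, 13 MEG3 rows start within 50 nt of this point (chr14:101292445), and all 13 were listed at 0. None of these 13 rows, nor MEG3-202 or MEG3-221, has the same version in the table as in the annotation. Their starts and exons in the alignment reference may therefore differ. The model of MEG3-226 starts upstream, at chr14:101245747, and this row was also listed at 0. Of the 14 rows that start elsewhere, 12 were at 0, and the other two were MEG3-202, which starts inside the gene, and MEG3-221. The first exon of MEG3-202 (chr14:101299306-101302216, 2911 nt) lies whole in no other row. Its later exons are widely shared: exon 2 (chr14:101302504-101302637) lies in 21 rows, 19 of them at 0, and exon 3 (chr14:101311795-101311870) in 19 rows, 17 of them at 0. Exon 4 (chr14:101327028-101327358) lies in 11 rows, 10 of them at 0. Of 23214 exonic bases of MEG3, 17829 (76.8%) belong only to rows at 0. RSEM, which made the values, divides fragments that match several transcripts by estimation, so where along a transcript the fragments fell cannot be read from the table.

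**Figure D1:**
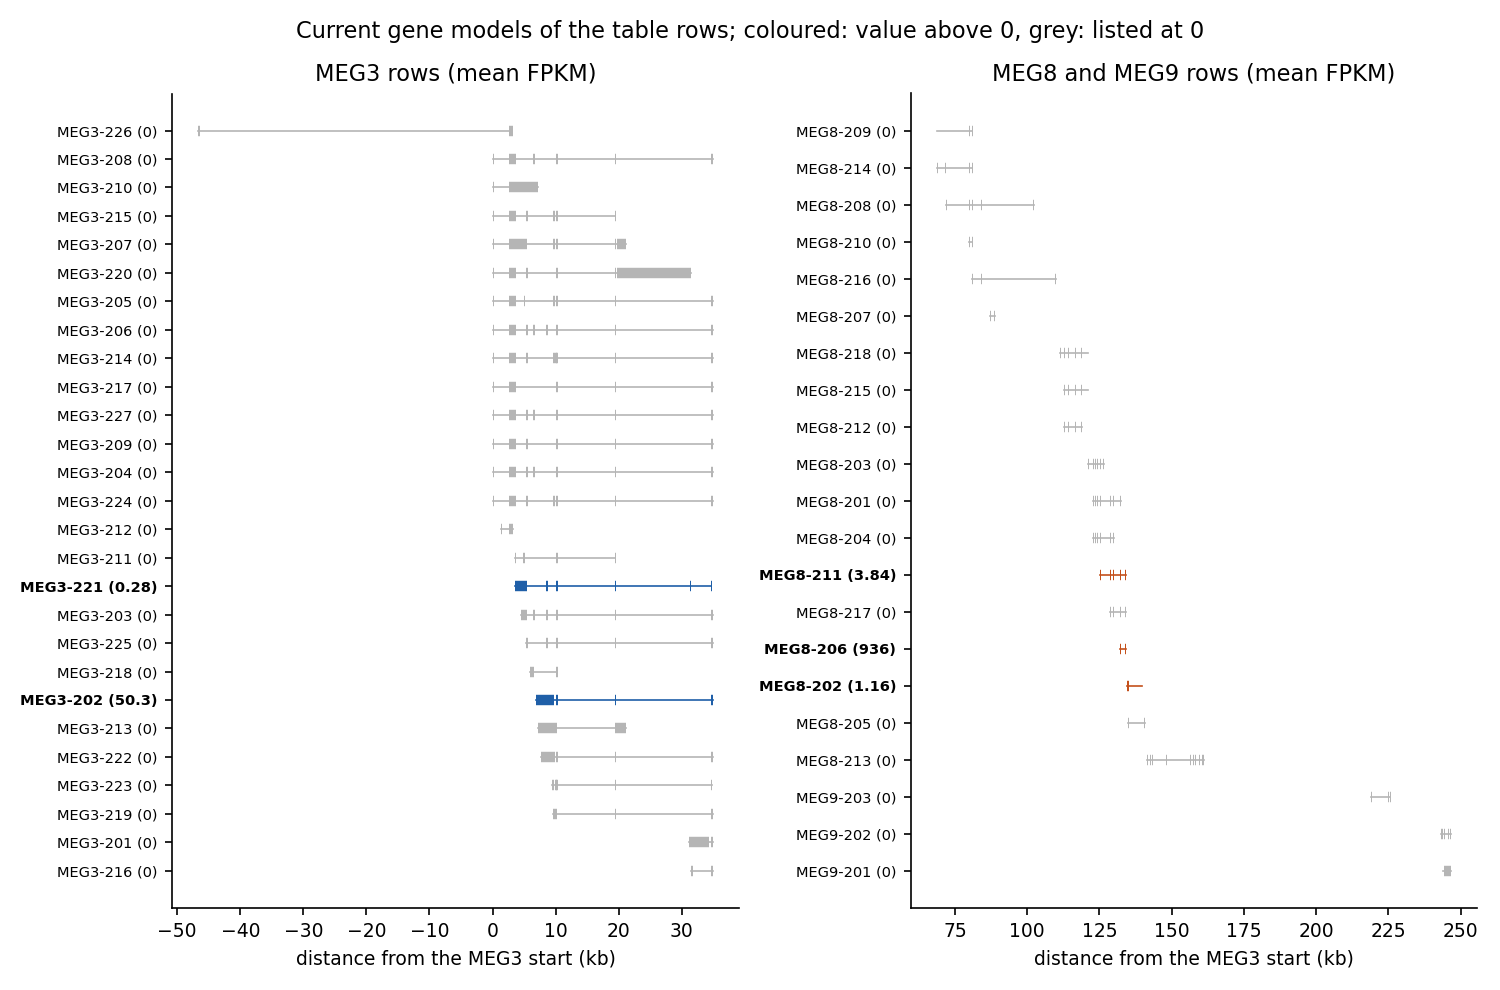
Models of the MEG3 rows (left) and of the MEG8 and MEG9 rows (right). Distance is in kb from chr14:101292445, taken as the MEG3 start. Exons are thick bars and introns are lines, and the mean FPKM over 4 libraries stands in brackets. Coloured models had a value above 0, and of these MEG3-202 and MEG3-221 start inside MEG3. All 13 models that start within 50 nt of the MEG3 start are grey, which means listed at 0.

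MEG8 had the highest value of the 3 genes in every library. Its gene sum was 826.1, 1065.55, 952.1 and 920.8 FPKM in replicates 1 to 4. Replicate 1 was lowest and replicate 2 highest, and the lowest was still far above every MEG3 value. On the log2(FPKM + 1) scale it lay 7.29 (SE 0.088) above the level of 5 FPKM (limma adjusted p = 1.88e-17), and 99.35% of genes had a lower mean. MEG8 exceeded MEG3 by log2 ratios of 3.90, 4.41, 4.33 and 4.21, a mean of 4.21 ± 0.22 or 18.54-fold. The ratio had the same direction in 4 of 4 libraries, which again is 2 of 16 sign patterns in the exact two-sided permutation test.

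MEG8-206 (ENST00000443252), a model of 2 exons and 480 nt, carried the MEG8 value. It stood at 822.79, 1060.66, 943.56 and 917.5 FPKM, a mean of 936.1 ± 97.9 FPKM, and 99.6% of rows had a lower mean. Its share of the MEG8 sum was 99.6%, 99.54%, 99.1% and 99.64%, with a mean of 99.47 ± 0.2498%. It was called above 5 FPKM, by 7.28 (SE 0.083) on the log2(FPKM + 1) scale (limma adjusted p = 4.87e-12). Its coefficient of variation of 10.46% was close to the median of 10.88% over 86 rows of a similar level. At the depth estimated from the steps between low FPKM values, 4500000 to 5060000 fragments a library on non-coding transcripts, the row would rest on about 1481, 2062, 1789 and 1857 fragments, and counting error by itself would then amount to a variation of 2.36%.

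Only 2 more MEG8 rows were above 0. MEG8-211 (ENST00000554369), of 485 nt, stood at 2.94, 4.03, 6.6 and 1.79 FPKM. Replicate 3 was above 5 FPKM and the other three were below, and the mean of 3.84 ± 2.05 FPKM was not placed on either side of 5 FPKM (difference -0.41 on the log2(FPKM + 1) scale, SE 0.278, limma adjusted p = 0.196). MEG8-202 (ENST00000423708), of 823 nt, stood at 0.33, 0.86, 1.94 and 1.51 FPKM. All 4 of its values were below 5 FPKM, and it was called below, by -1.54 (SE 0.26) on the same scale (limma adjusted p = 0.000381).

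Both minor rows varied more than the leading one, with coefficients of variation of 53.51% for MEG8-211 and 61.16% for MEG8-202. Rows of a level within 1.5-fold had medians of 38.67% (1343 rows) and 70.87% (1321 rows). Variation of this size was therefore common at such low levels. MEG8-206 exceeded MEG8-211 by a mean log2 ratio of 8.08 ± 0.75 or 271-fold, and MEG8-211 exceeded MEG8-202 by 1.85 ± 1.21 or 3.602-fold. Both ratios were positive in 4 of 4 libraries, again the smallest p of the exact test. In replicate 4 the log2 ratio of MEG8-211 to MEG8-202 was 0.25, the lowest of the 4 libraries, and in replicate 1 it was 3.16, so the distance between these neighbours in the order was of the size of their spread.

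**Figure D2:**
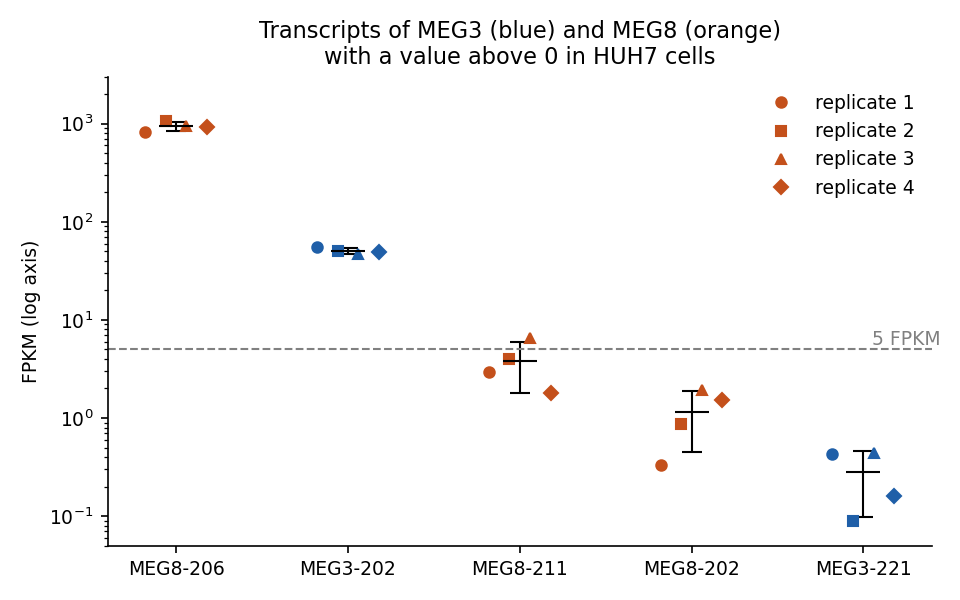
FPKM (log axis) of the 5 MEG3 and MEG8 transcripts with a value above 0, 1 point per library and replicate, with the mean and SD over 4 libraries as bars and 5 FPKM as a dashed line. MEG8-206 and MEG3-202 sit above the line in every library, MEG8-211 has 1 library above it, and MEG8-202 and MEG3-221 have none.

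Exon 1 of MEG8-206 (chr14:101424599-101424680, 82 nt) also lies in 3 other rows. Its exon 2 (chr14:101426139-101426536, 398 nt) lies whole in no other row. Of 8330 exonic bases of MEG8, 6743 (80.9%) belong only to rows at 0. In the current models, MEG8-217 contains most of MEG8-206, with a repeated run of 311 nt against 326 nt in MEG8-206, and was listed at 0. Of the 5 rows above 0, MEG8-206 alone has the same version in the table as in the annotation, so lengths and sequence shares given for the other four are those of newer models. Of the 13 member rows of the same version, 12 were at 0.

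Repeated sequence was unevenly spread over the members. Shares of repeated sequence given here are shares of a transcript's 24-mers, not of its bases. In MEG8-206, 48.14% of 24-mers occur at least 10 times in the genome, up to 95251 times, in a run from nucleotide 150 to 475. This run spans 326 of the 480 nt of MEG8-206. In MEG3-202 the share was 7.437%, in a run from nucleotide 299 to 594 with up to 269876 copies. In the other rows above 0, the share was 19.05% in MEG8-211, 9.25% in MEG8-202 and 1.42% in MEG3-221, where a run of 54 nt reached 354577 copies.

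**Figure D3:**
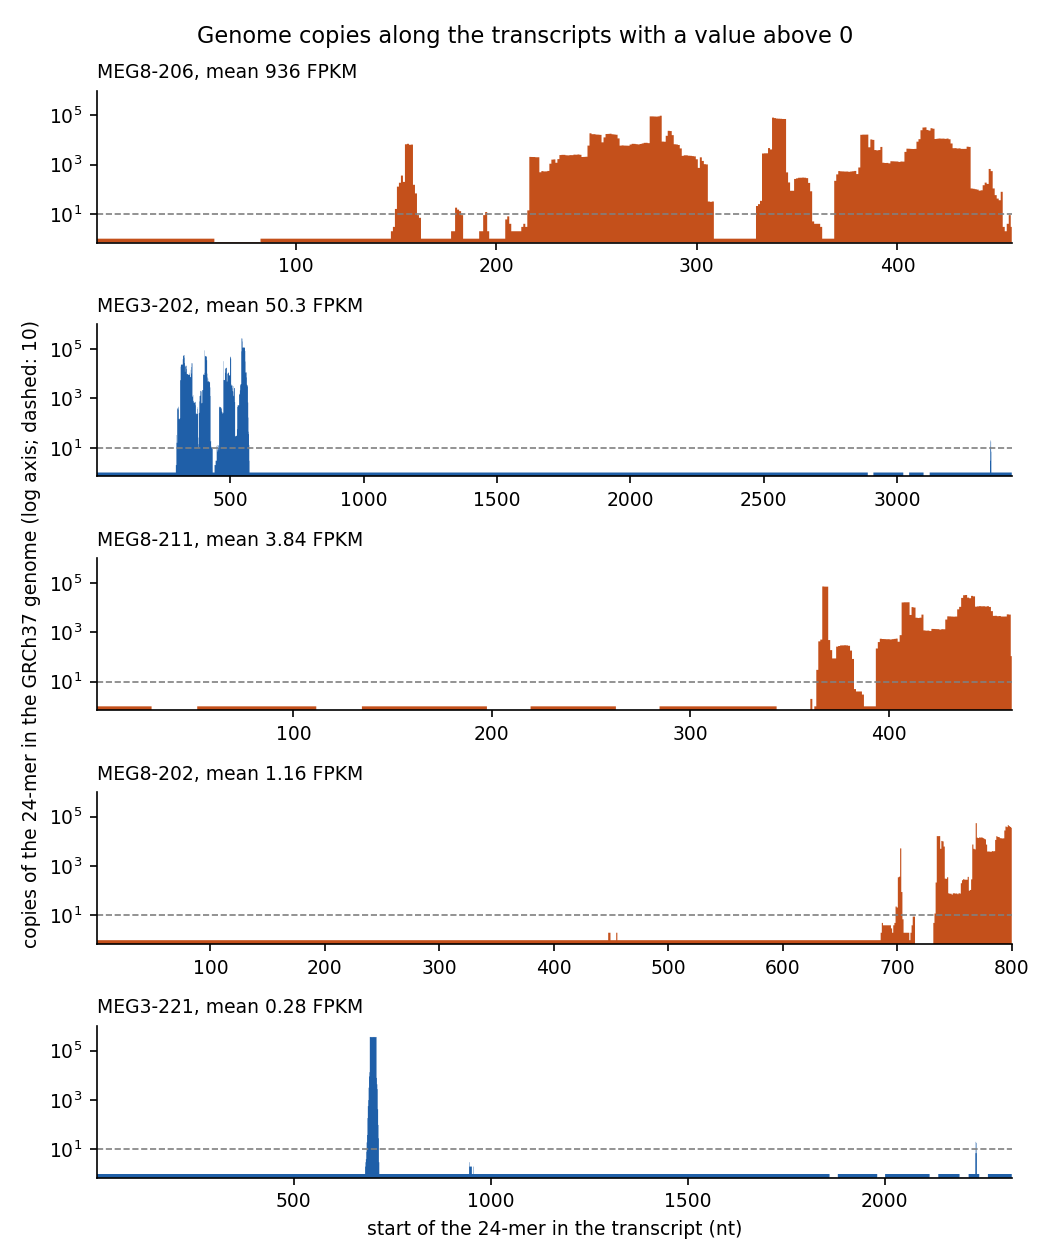
Number of occurrences in the GRCh37 genome, on both strands (log axis), of the 24-mer starting at each nucleotide of the 5 transcripts with a value above 0, with 10 copies as a dashed line; gaps are 24-mers across exon junctions that the genome does not hold. High-copy sequence fills the second part of MEG8-206 and forms 1 block near the start of MEG3-202.

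Values above 0 and high-copy sequence went together among the members. Of 10 member rows that hold a 24-mer with at least 10000 copies, 5 were above 0, and of the 38 rows without one, none was. Over all matched rows of the table, 9.02% of the 3592 rows with such a 24-mer were at 0, and 47.1% of the 14781 rows without one. High-copy sequence did not always come with a value: MEG3-213, whose version equals its model, begins with 285 nt of repeated sequence in common with MEG3-202 and was listed at 0, as were MEG3-207, MEG3-210, MEG3-220 and MEG8-217. The part that repeated sequence has in the MEG3 and MEG8 values was not tested.

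Repeats also tie these rows to transcripts of other genes. MEG8-206 shares at least 1 24-mer with 346 rows of other genes in the same orientation and with 490 in the opposite one, and MEG3-202 with 982 and 739. Of the 24-mers of MEG8-206, 2.19% occur in no other row of the table. For MEG3-202 there were none, since other MEG3 models cover its sequence piece by piece. Set against rows above 0 with a like share of repeated sequence, both rows ranked in the upper part: 91.8% of 232 rows with 40% to 60% had a lower mean than MEG8-206 (median 144.6 FPKM), and 90.2% of 1416 rows with 5% to 10% had a lower mean than MEG3-202 (median 9.939 FPKM). No member overlapped an exon of a protein-coding transcript.

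**Figure D4:**
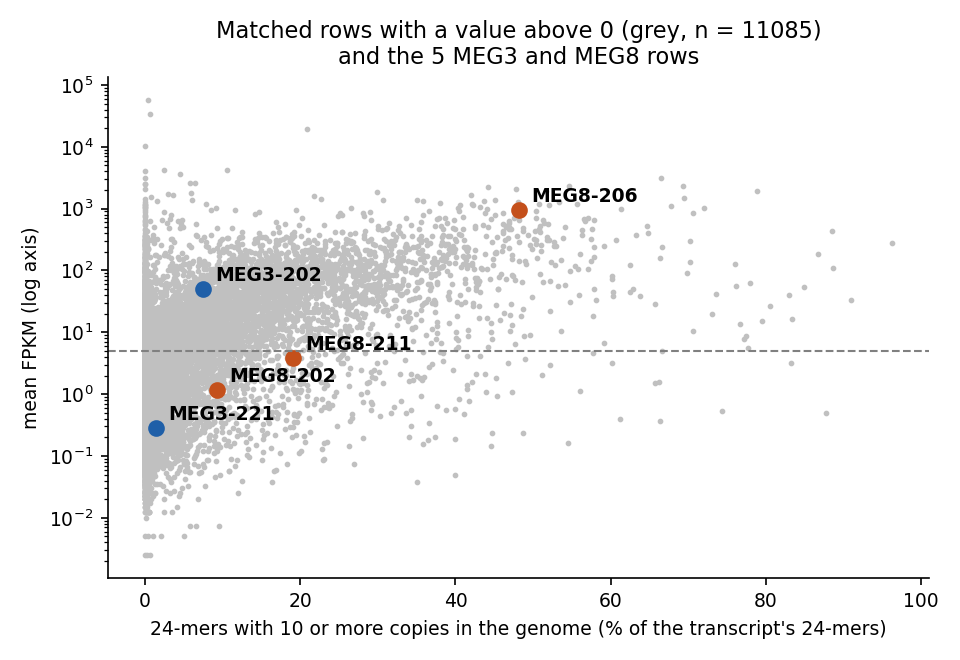
Mean FPKM over 4 libraries (log axis) against the share of a transcript's 24-mers that occur at least 10 times in the genome, in percent, for 11085 matched rows above 0 (grey) and the 5 MEG3 and MEG8 rows; the dashed line is 5 FPKM. MEG8-206, at 936 FPKM and 48.14%, lies high among rows of a like repeat share, and MEG3-202 lies at 50.3 FPKM and 7.437%.

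Most of the domain around the 3 genes was listed at 0. From LINC00523, upstream of DLK1, to DIO3OS, the antisense RNA of the DIO3 locus, the table has 79 rows, of which 72 (91.1%) were at 0. Of the 31 rows there that are not MEG3, MEG8 or MEG9, 29 were at 0. DIO3OS summed to 0.0625 FPKM, and the intergenic lncRNAs LINC00523, LINC00524, LINC02285 and LINC02320 were listed at 0. These 5, of which LINC02320 lies beyond DIO3OS, were the measured genes of the 14q32 list other than the 3 members, and all had means under 0.1 FPKM, so none was tested. The other 49 of the 54 listed genes, among them the small nucleolar RNAs of the SNORD113 and SNORD114 families that MEG8 carries and the coding genes, were not measured here.

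Farther out, values were more common. Of the 20 rows within 1 Mb of the 3 genes but outside that stretch, 6 (30%) were at 0, against 39.4% over the whole table. Of the 27 genes within 1 Mb other than the 3 members, 11 were tested: 3 were called above 5 FPKM, 6 below and 2 were not placed. Over all genes tested, 50.3% were called above and 38.5% below. The highest rows were 2 transcripts without a gene name, ENST00000555212 at 320.4 FPKM and ENST00000556205 at 194.7 FPKM, with 35.3% and 45.1% repeated sequence. ENST00000553954, at 12.07 FPKM, has none.

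**Figure D5:**
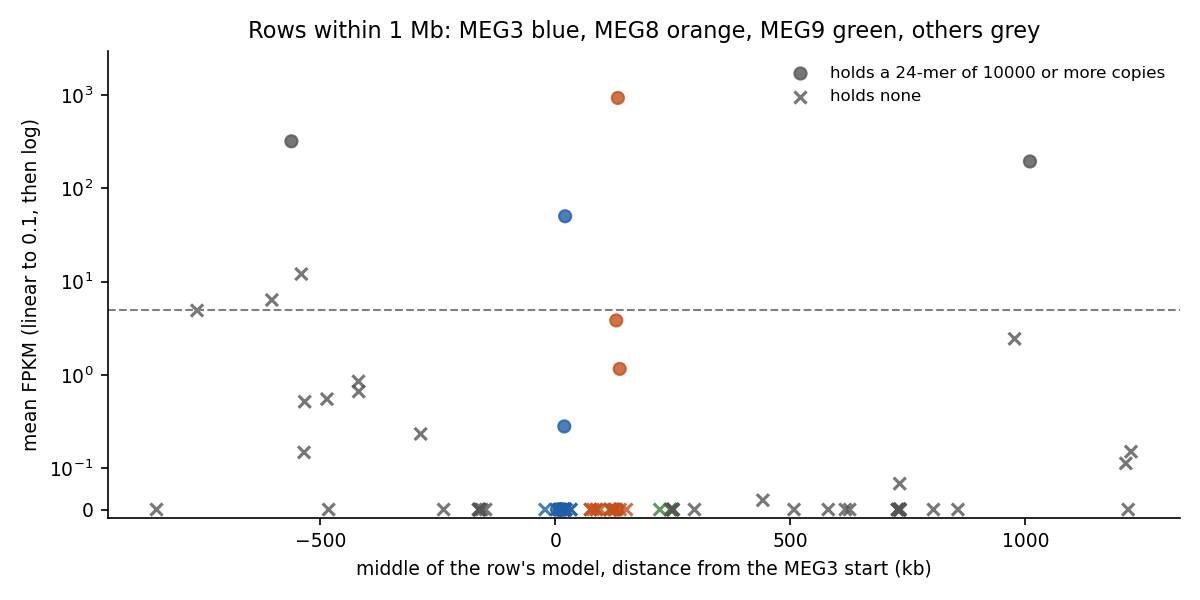
Mean FPKM over 4 libraries (linear to 0.1, then log) of the 99 rows within 1 Mb of the MEG3 to MEG9 span, by the distance of the model's middle from the MEG3 start in kb; circles hold a 24-mer with 10000 or more genome copies and crosses hold none, and the dashed line is 5 FPKM. Around MEG3, MEG8 and MEG9 nearly all rows lie at 0, and the 5 member rows above it are circles. From LINC00523 to DIO3OS, 2 other rows lie above 0, at 0.0225 and 0.0625 FPKM, and are crosses.

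Among imprinted non-coding genes, MEG8 was the highest and MEG3 the third. Of 29 listed genes, 13 had rows, and 7 of these were tested: 5 were called above 5 FPKM, 1 below and 1 was not placed. Over all genes tested, 50.3% were called above and 38.5% below. Without the 3 members, 10 had rows and 4 of these were at 0, against 34.9% of all genes. Their median was 1.369 FPKM, against 0.74 FPKM over all genes. Of these 10, 5 were tested and 3 were called above. PWRN1, a lncRNA of the Prader-Willi region, stood at 52.69 ± 16.13 FPKM, a difference from MEG3 smaller than its own spread. WT1-AS, antisense to the WT1 gene, stood at 31.23 ± 7.133 FPKM, and SNHG14, the long host transcript of the SNORD115 and SNORD116 RNAs, at 13.13 ± 1.005 FPKM.

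The lower end of the list held H19, a fetal liver lncRNA from the maternal allele, at 3.87, 7.52, 3.91 and 8.4 FPKM in replicates 1 to 4. The libraries titled L were lower than those titled H, a split that was not tested and not counted over all genes. Over all 4, the mean of 5.925 ± 2.377 FPKM was not placed (limma adjusted p = 0.558). GNAS-AS1, antisense to the GNAS locus, stood at 2.675 ± 0.8994 FPKM and was called below 5 FPKM (limma adjusted p = 0.00766), followed by DIO3OS. The leading rows of PWRN1, WT1-AS and SNHG14 also held repeated 24-mers, with 12.82%, 0.6833% and 1.621% repeated sequence, and those of H19, GNAS-AS1 and DIO3OS held none.

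The cell type was checked against non-coding marker genes. Of 9 measured liver and liver tumour markers, 8 were tested, and 5 of these 8 were called above 5 FPKM, among them HULC at 693.2 FPKM. Over all genes tested, 50.3% were called above. FAM99A, at 0.2375 FPKM, and FAM99B, at 0.41 FPKM, were called below, H19 was not placed and FTCD-AS1 was listed at 0. Of 11 measured markers of blood, stromal and neural cells, 9 were tested, with 7 called above and 2 below. MIR155HG, listed at 0, and MIR142HG, at 0.035 FPKM, were not tested. The leading rows of the 7 called above held from 0% repeated sequence, in RMST (78.91 FPKM) and MIR503HG (54.08 FPKM), to 25.61% in LINC00426 (328 FPKM). The non-coding markers thus did not set liver apart from other cell types in this table. Summed FPKM per library lay between 1755972 and 1965229.

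Genes with the pattern most like that of a member were found by the Euclidean distance of log2(FPKM + 1) over the 4 libraries, among 5073 named genes. Nearest to MEG3 were LINC01389 (50.0 ± 4.196 FPKM, distance 0.1247), CHUK-DT (52.07 ± 5.704 FPKM, 0.157) and BMS1P4-AGAP5 (51.65 ± 4.866 FPKM, 0.171). Nearest to MEG8 were KDM4A-AS1 (940.1 ± 106.2 FPKM, distance 0.14), C2orf74-DT (951.5 ± 64.55 FPKM, 0.212) and OIP5-AS1 (901.5 ± 32.06 FPKM, 0.256). All 6 had levels within the spread of the member they neighboured, as their choice by distance implies. Leading rows held repeated sequence in 5 of these 6 genes, from 10.53% in OIP5-AS1 to 38.93% in C2orf74-DT, and that of LINC01389 held none. The share of all genes whose leading row holds repeated sequence was not counted.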

How the data were processed

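The authors aligned reads of strand-specific, ribosome-depleted libraries with Bowtie 1.01 to a non-coding Ensembl annotation (version 68) on hg19 (GRCh37) and summarised them with RSEM 1.2.3, per the methods and the submitters' processing notes. The deposited values are FPKM per transcript, with no counts; the sources used here do not give the strand setting. Depths were estimated from the steps of low FPKM values, of which 68.2% to 68.8% lay within 0.05 of a whole fragment after subtracting 80 nt from the transcript length, so no count test was run. Identifiers were matched to GENCODE release 44 on GRCh37 (18373 of 19835 rows, 11445 with the same version). Gene values are sums of rows. Rows (11435) and genes (7124) with a mean of at least 0.1 FPKM were tested on log2(FPKM + 1) against 5 FPKM with limma 3.58.1 (trend, R 4.3.3, two-sided, Benjamini-Hochberg, threshold 0.05), a script tested on simulated data. Ratios within a library were tested with exact sign-flip permutation over all sign patterns. Genome copies of all 24-mers were counted on both strands. The repeated sequences themselves and 1 marker gene are not reported here. Coding exon overlap was found with bedtools 2.31.1. Values were printed for every member row with a mean of at least 0.1 FPKM, all measured 14q32 genes, the 5 highest and 3 lowest imprinted genes above 0, and the 3 named genes nearest to MEG3 and to MEG8; the marker genes, neighbouring rows and rows at 0 named beside them were chosen after their values were seen. Members and lists were chosen with earlier results of these data known. Alternatives were other pseudocounts, thresholds, filters, scalings, a fit without trend, the highest transcript, matching versions and each library left out.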

Additional observations from a re-analysis of the deposited data

How the results depend on the processing

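Of 144 recomputed values, 136 kept their direction and their side of the threshold or moved by less than the spread. The gene calls rest on 1 row each: without its leading transcript, an alternative chosen after seeing the data, MEG3 lay at -2.24 (limma adjusted p = 4.75e-08) and MEG8 at -0.082 (limma adjusted p = 0.747) relative to 5 FPKM on the log2(FPKM + 1) scale. Against 1 FPKM, MEG8-211 lay at 1.18 (limma adjusted p = 0.00387) and MEG8-202 at 0.048 (limma adjusted p = 0.878), and against 10 FPKM MEG8-211 lay at -1.28 (limma adjusted p = 0.00172). With 1 FPKM as the threshold, the count called above rose from 3 to 5 both for the other imprinted genes and for the other genes within 1 Mb, and that of member transcripts from 2 to 3, as the lower threshold implies. With 10 FPKM, 2 other genes within 1 Mb were called above. With a pseudocount of 1, the log2 ratio of MEG3-202 to MEG3-221 was 5.33, since MEG3-221 lies under 1 FPKM. No row of MEG3 with the same version as its model was above 0 (6 rows), so that restriction gave no MEG3 value and no ratio of MEG8 to MEG3. No paired analysis was possible because there was 1 group, the letters L and H in the titles being no variable per the submitters. The FPKM hold no counts, so the depth behind single rows is an estimate, and a row listed at 0 gives no upper limit.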
